A study of Mus musculus with 6 samples.

Results

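Transcript levels of 10 genes of fatty acid oxidation and lipid droplets were followed in mouse germinal vesicle (GV) oocytes with and without an intact *Bnc1* gene. The genes were listed by symbol (*Cpt1a*, *Cpt2*, *Acadm*, *Acadl*, *Acadvl*, *Hadha*, *Hadhb*, *Plin2*, *Plin3* and *Pnpla2*), and all 10 were found among the 17577 genes with a value in each library. The 6 libraries were 3 from *Bnc1*tr/tr mice, which carried on both alleles a short frameshift deletion that truncates the transcription factor basonuclin 1, and 3 from wild-type (WT) mice. All were oocytes from the ovary of 12-week-old C57BL/6 J females. The study described 1 oocyte as the input of each cDNA (modified Smart-seq2) and oocyte collection after priming with a gonadotropin, and no other treatment of these oocytes was given. The truncating allele was present in every cell of the animal, so the follicle cells around a *Bnc1*tr/tr oocyte carried it too. The study named 3 biological replicates per group and stated that its comparisons were between littermates. Whether the 3 libraries of a genotype came from different females was not given in the sources used here. The p-values therefore measure the spread between these libraries.

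Fatty acids stored as triglyceride in lipid droplets are released by lipases, enter mitochondria on carnitine, and are shortened by repeated rounds of beta-oxidation that yield acetyl-CoA and reduced cofactors. Carnitine palmitoyltransferase 1a on the outer mitochondrial membrane loads the chain onto carnitine, and carnitine palmitoyltransferase 2 inside returns it to coenzyme A. Acyl-CoA dehydrogenases of overlapping chain-length preference take the first oxidation step, and the alpha and beta subunits of the trifunctional protein carry out the later steps on long chains. In the ovary, beta-oxidation is known to support the meiotic maturation of oocytes, and droplets are a lipid store of the mammalian egg.

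Levels are FPKM, fragments per kilobase of transcript per M (mega) mapped fragments, as the authors deposited them, and therefore are per length and can be compared between genes. *Bnc1* itself was listed at 9.04, 6.51 and 5.83 FPKM in *Bnc1*tr/tr and at 13.17, 12.54 and 16.23 FPKM in WT, a log2 fold change of -0.89 (limma adjusted p = 0.009). The truncated transcript can still be counted, so this level is not a test of the protein. Estimated depth ran from 12.66 to 17.16 M fragments in *Bnc1*tr/tr and from 15.04 to 21.72 M in WT. The 15 oocyte markers summed to between 10230.4 and 11450.7 FPKM in *Bnc1*tr/tr and between 8912.7 and 13432.7 FPKM in WT, with all 15 present. By the thresholds given below, 1 of the 15 was called higher and 2 lower, against 24.1% and 7.68% of all tested genes. *Dazl* was higher (log2 fold change 0.84, limma adjusted p = 0.0035). *Zp2* (-0.74, limma adjusted p = 0.032) and *Nlrp5* (-0.62, adjusted p = 0.026) were lower. Between 15258 and 15736 genes were above 0 in *Bnc1*tr/tr and between 13896 and 14576 in WT.

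Of the 10 genes, *Acadl*, *Plin3* and *Acadm* were higher in *Bnc1*tr/tr oocytes, by 4.43-fold, 2.38-fold and 1.85-fold in mean FPKM (n = 3 libraries a genotype). They encode the long-chain acyl-CoA dehydrogenase, a droplet coat protein and the medium-chain acyl-CoA dehydrogenase. No gene of the 10 was called lower. *Cpt2*, *Acadvl*, *Hadha*, *Hadhb*, *Plin2* and *Pnpla2* did not pass the test, and *Cpt1a* was too low to be tested. A gene was tested where its mean over the 6 libraries was at least 1 FPKM, and was called where limma gave a Benjamini-Hochberg adjusted p under 0.05 and the log2 fold change of FPKM + 1 was over 0.5 in size. Of the 10560 genes tested, 31.8% were called, with 24.1% higher and 7.68% lower in *Bnc1*tr/tr. Among the 9 tested genes of the list 3 were called higher and 0 lower, and 0 had a lower level at an unadjusted p under 0.05. The median log2 fold change was 0.21 over the 9 genes and 0.15 over all tested genes. The groups did not overlap for 3 of the 9 genes, against 46.8% of all tested genes.

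**Figure D1:**
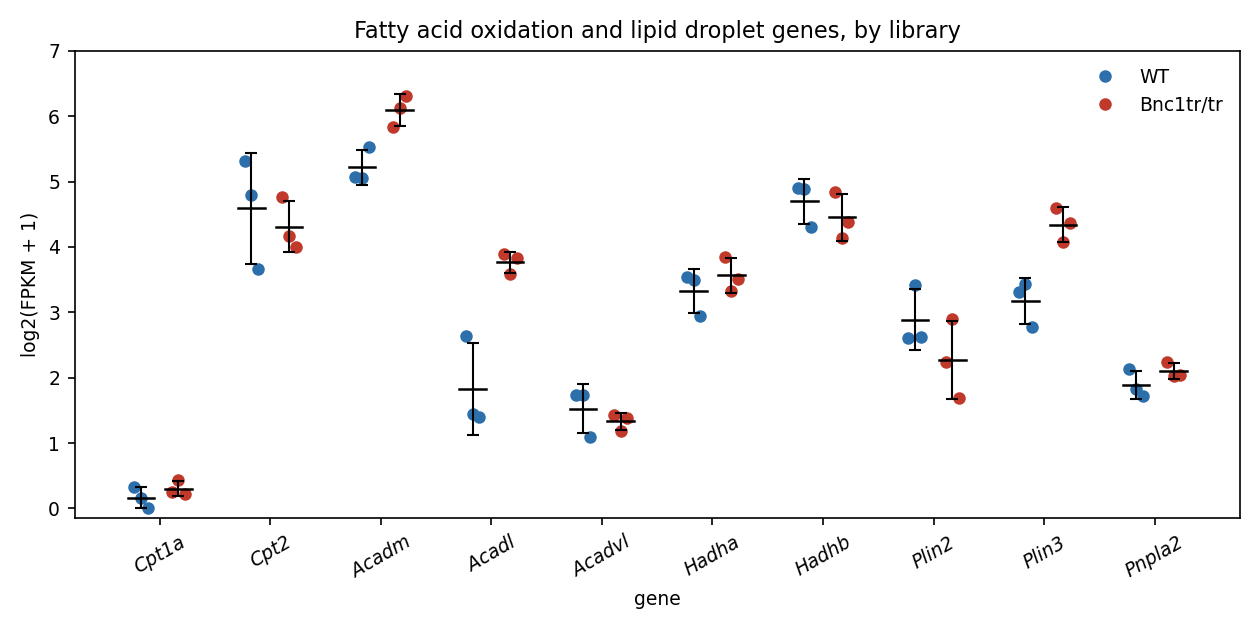
Each point is the level of a gene in 1 library, as log2(FPKM + 1), for 3 WT (blue) and 3 Bnc1tr/tr (red) libraries, with bars for the mean and the SD of the log2 values. The red and blue points are apart for Acadm, Acadl and Plin3, and overlap for the other 7 genes.

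The 250 bases before the RefSeq transcription start are shown for the 3 genes that were called higher and for *Hadhb*, whose window is shared with *Hadha*, because the 2 subunit genes lie head to head with 272 bases between their starts. Sequences are from RefSeq on GRCm38.p6, are written 5′ to 3′ on the strand of the gene, and lie at chr1:66863310-66863559 (minus strand), chr3:153944644-153944893 (minus), chr17:56290512-56290761 (minus) and chr5:30155003-30155252 (plus). Capitals mark matches on either strand to the GC box, spelled GGGCGG, a frequent element of promoters without a TATA box. They also mark a further common promoter element, spelled CCAAT. The last motif in capitals is the half-site bound by nuclear receptors such as the PPAR family, which is spelled AGGTCA.
Acadl: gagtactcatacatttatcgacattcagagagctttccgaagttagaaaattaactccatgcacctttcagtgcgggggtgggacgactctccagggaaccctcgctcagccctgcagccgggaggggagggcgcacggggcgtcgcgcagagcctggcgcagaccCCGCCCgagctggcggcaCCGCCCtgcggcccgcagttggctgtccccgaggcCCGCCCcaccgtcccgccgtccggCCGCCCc
Acadm: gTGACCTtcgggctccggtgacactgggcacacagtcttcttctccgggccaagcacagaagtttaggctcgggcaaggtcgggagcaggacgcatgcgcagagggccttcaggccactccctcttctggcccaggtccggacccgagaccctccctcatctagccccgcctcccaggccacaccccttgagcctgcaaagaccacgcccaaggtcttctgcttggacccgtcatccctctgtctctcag
Plin3: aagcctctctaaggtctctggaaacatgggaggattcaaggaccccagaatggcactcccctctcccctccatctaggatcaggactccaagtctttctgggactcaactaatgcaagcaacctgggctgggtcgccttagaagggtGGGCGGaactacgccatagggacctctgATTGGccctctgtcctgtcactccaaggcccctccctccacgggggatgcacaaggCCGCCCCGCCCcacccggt
Hadhb: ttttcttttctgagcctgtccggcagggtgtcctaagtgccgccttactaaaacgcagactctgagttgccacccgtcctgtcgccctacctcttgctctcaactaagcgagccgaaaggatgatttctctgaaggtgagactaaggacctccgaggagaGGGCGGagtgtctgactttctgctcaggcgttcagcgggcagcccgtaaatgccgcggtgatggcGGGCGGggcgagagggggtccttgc
The GC box was found 4 times before *Acadl*, 3 times before *Plin3*, where the last 2 matches share 1 base, 2 times before *Hadhb* and 0 times before *Acadm*. Across the 10 genes 7 windows held it, against 32.7% of the 32851 windows of all RefSeq promoters. The windows of *Hadha* and *Hadhb* overlap and have 1 GC box in common, so the 7 are not all separate stretches. The half-site was in 4 of the 10 windows (*Acadm*, *Plin2*, *Acadvl* and *Cpt1a*), against 14.0% of all. The CCAAT box was in 3 (*Plin2*, *Plin3* and *Cpt1a*), against 33.8%. The windows of *Cpt1a* (chr19:3323051-3323300) and *Plin2* (chr4:86670060-86670309) lie wholly and partly inside the gene spans given below, before an internal start. A direct repeat of the half-site, AGGTCANAGGTCA, was in 0 of the 10 windows and in 0.0335% of all. The E-box, written CACGTG, was in 0 of the 10 and in 6.02% of all, and the TATA box, written TATAAA, in 0 of the 10 and in 12.4% of all. The windows of *Acadl*, *Acadm*, *Plin3* and *Hadhb* were 68.0%, 64.0%, 60.0% and 58.8% G and C, and the median of all windows was 52.4%. A match is a description of these letters, and no match says only that they are not in this window.

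*Cpt1a* (chr19:3322326-3385735, plus strand), which encodes the carnitine palmitoyltransferase of the outer membrane that limits the entry of long chains, was close to the floor. It was listed at 0.19, 0.35 and 0.16 FPKM in *Bnc1*tr/tr and at 0.25, 0.12 and 0.00 FPKM in WT. The groups overlapped, and 3 fragments on this transcript correspond to 0.034 to 0.058 FPKM at the estimated depths. These values stood for an estimated 0 to 24 fragments a library. The filter of 1 FPKM left *Cpt1a* out of the test, and without the filter its log2 fold change was 0.14 (limma adjusted p = 0.48). *Cpt2* (chr4:107903982-107923589, minus strand), the inner-membrane partner, was listed at 26.08, 17.02 and 15.05 FPKM in *Bnc1*tr/tr and at 38.84, 26.66 and 11.61 FPKM in WT. The WT libraries spanned the whole range of the *Bnc1*tr/tr libraries. The log2 fold change of *Cpt2* was -0.28 (SE 0.39, 95% interval from -1.16 to 0.61, limma adjusted p = 0.63), and it turned to 0.089 without WT replicate 1, the highest library. The FPKM ratio of *Cpt1a* to *Cpt2* was 0.00729, 0.0206 and 0.0106 in *Bnc1*tr/tr and 0.00644 and 0.0045 in the WT libraries where *Cpt1a* was above 0. The groups did not overlap, but each ratio rests on few *Cpt1a* fragments, and the exact permutation p of 0.20 is the smallest that 3 against 2 libraries allow. The other carnitine genes of the files gave 0 calls among 3 tested, with 0 at an unadjusted p under 0.05 in either direction. Of all tested genes 31.8% were called, and 3 genes are too few to set against that share. The most abundant were the carnitine-acylcarnitine carrier *Slc25a20*, with a log2 fold change of -0.11 (limma adjusted p = 0.80), and the peroxisomal transferase *Crot*, with -0.30 (adjusted p = 0.23). *Crot* was at 3.22 to 3.68 FPKM in *Bnc1*tr/tr and 3.85 to 5.69 FPKM in WT, without overlap, as were 46.8% of all tested genes. After quantile normalization *Crot* was called lower, at -0.69 (limma adjusted p = 0.022).

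*Acadl* (chr1:66830839-66863309, minus strand) had the largest change of the 10 genes. It was listed at 13.77, 10.96 and 13.25 FPKM in *Bnc1*tr/tr and at 5.22, 1.72 and 1.63 FPKM in WT. Every *Bnc1*tr/tr library was at least 10.96 FPKM, above the highest WT library, and WT replicate 1 stood above the other two WT libraries. The means were 12.7 ± 1.5 and 2.86 ± 2.05 FPKM (SD, n = 3), and the log2 fold change was 1.94 (SE 0.32, limma adjusted p = 0.0018), or 1.80 above the median of all tested genes. In the ranking of all listed genes by mean FPKM it moved from percentile 56.7 in WT to 72.3 in *Bnc1*tr/tr. The call held in all 14 alternative fits, with log2 fold changes from 1.6 to 2.35. *Acadl* shared none of its 31-base words with transcripts of other genes.

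*Acadm* (chr3:153922353-153944643, minus strand) was the most abundant of the 10 genes in both genotypes. It was listed at 56.09, 69.12 and 78.33 FPKM in *Bnc1*tr/tr and at 32.53, 32.24 and 45.14 FPKM in WT. The lowest *Bnc1*tr/tr library was above the highest WT library. The means were 67.8 ± 11.2 and 36.6 ± 7.37 FPKM (SD, n = 3), with a log2 fold change of 0.88 (SE 0.20, 95% interval from 0.41 to 1.34, limma adjusted p = 0.011). When libraries were scaled by their median ratio, the log2 fold change of *Acadm* was 0.66 and its limma adjusted p was 0.055, so the call was lost. *Acadvl* (chr11:70010183-70015428, minus strand), which encodes the very-long-chain dehydrogenase of the inner membrane, was listed at 1.68, 1.26 and 1.62 FPKM in *Bnc1*tr/tr and at 2.34, 2.34 and 1.13 FPKM in WT. The groups overlapped, with WT replicate 3 the lowest library, and the log2 fold change was -0.19 (95% interval from -0.68 to 0.29, limma adjusted p = 0.53). After quantile normalization *Acadvl* was called lower, at -0.63 (limma adjusted p = 0.035). *Acadvl* shared 33.2% of its 31-base words with *Dvl2*, a gene on the opposite strand that overlaps it, and without strand information reads in this shared stretch cannot be assigned to either gene.

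The 3 dehydrogenases were also set against each other within a library, a measure that no scaling factor of a library can move. The FPKM ratio of *Acadvl* to *Acadl* was 0.122, 0.115 and 0.122 in *Bnc1*tr/tr and 0.448, 1.36 and 0.693 in WT. It was 6.27-fold higher in WT by the mean of log2 ratios, without overlap. The ratio of *Acadl* to *Acadm* was 0.245, 0.159 and 0.169 in *Bnc1*tr/tr and 0.16, 0.0533 and 0.0361 in WT, which overlapped by a narrow margin. In an exact two-sided permutation test the p-values were 0.10 for the first and 0.20 for the second ratio, where 0.10 is the smallest p that 3 against 3 libraries allow. Adjusted over the 6 pairs of genes that were compared, both were 0.20, so no pair could pass.

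**Figure D2:**
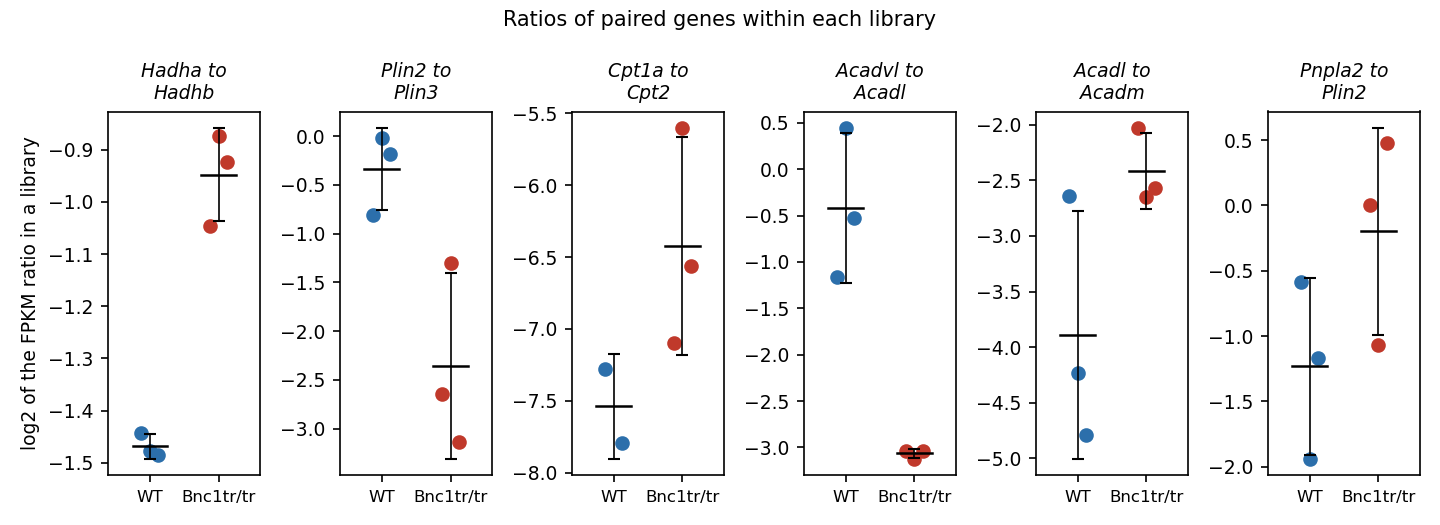
Each panel plots the log2 of the FPKM ratio of 2 genes within a library, for WT (blue, 3 points, or 2 for Cpt1a to Cpt2, since Cpt1a was at 0 in 1 library) and Bnc1tr/tr (red, 3 points), with the mean and SD as bars and a y axis of its own. The groups are apart for Hadha to Hadhb, Plin2 to Plin3, Cpt1a to Cpt2 and Acadvl to Acadl, and overlap for the other 2 pairs.

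The trifunctional protein genes did not pass the test in either direction. *Hadha* (chr5:30119423-30154980, minus strand), the alpha subunit with the hydratase and the hydroxyacyl-CoA dehydrogenase, was listed at 13.39, 9.05 and 10.44 FPKM in *Bnc1*tr/tr and at 10.66, 10.3 and 6.69 FPKM in WT. *Hadhb* (chr5:30155253-30184593, plus strand), the beta subunit with the thiolase, was listed at 27.69, 16.57 and 19.82 FPKM in *Bnc1*tr/tr and at 29.0, 28.66 and 18.72 FPKM in WT. Both genes overlapped between the genotypes. Their log2 fold changes were 0.24 for *Hadha* (95% interval from -0.27 to 0.74, limma adjusted p = 0.45) and -0.25 for *Hadhb* (95% interval from -0.80 to 0.30, limma adjusted p = 0.48), and that of *Hadha* was -0.053 after quantile normalization.

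The ratio of *Hadha* to *Hadhb* was tight within each genotype. It was 0.484, 0.546 and 0.527 in *Bnc1*tr/tr and 0.368, 0.359 and 0.357 in WT, 1.43-fold higher in *Bnc1*tr/tr and without overlap, so the beta-subunit transcript exceeded the alpha-subunit transcript in all 6 libraries and by more in WT. The exact permutation p was 0.10, the smallest possible, and 0.20 after adjustment over the 6 pairs. The difference stayed between 0.48 and 0.57 on the log2 scale when any library was left out. *Hadhb* shared 23.7% of its 31-base words with other genes, 19.5% with the pseudogene *Gm13910*, and *Hadha* shared 0.674%, so the level of *Hadhb* is the less certain of the 2.

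*Plin3* (chr17:56278962-56290511, minus strand), which encodes a perilipin that moves from the cytosol onto nascent droplets, was listed at 23.12, 15.78 and 19.61 FPKM in *Bnc1*tr/tr and at 8.92, 9.83 and 5.85 FPKM in WT. Each *Bnc1*tr/tr library was above each WT library. The means were 19.5 ± 3.67 and 8.2 ± 2.09 FPKM (SD, n = 3), with a log2 fold change of 1.17 (SE 0.23, limma adjusted p = 0.0044), and the call held in all 14 alternative fits (0.91 to 1.3). *Plin2* (chr4:86626910-86670217, minus strand), whose product stays bound to droplets and is widely used as their marker, was listed at 3.71, 6.42 and 2.24 FPKM in *Bnc1*tr/tr and at 5.08, 9.73 and 5.16 FPKM in WT. *Bnc1*tr/tr replicate 2 lay within the WT range, and replicate 2 was the highest library of *Plin2* in both genotypes. The log2 fold change of *Plin2* was -0.61 (SE 0.33, 95% interval from -1.36 to 0.14, limma adjusted p = 0.19). It was called lower after quantile normalization (-0.97, limma adjusted p = 0.045) and with the replicate number as a block (-0.61, adjusted p = 0.033).

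In WT oocytes the 2 coat transcripts were close to each other in level, with *Plin2* at 0.57, 0.99 and 0.882 of *Plin3*. In *Bnc1*tr/tr oocytes *Plin2* was at 0.16, 0.407 and 0.114 of *Plin3*. The ratio was 4.05-fold higher in WT, without overlap, and the log2 difference ran from -2.55 to -1.63 when single libraries were left out. The exact permutation p was 0.10, the smallest possible, and 0.20 after adjustment over the 6 pairs, so this ratio did not pass.

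*Pnpla2* (chr7:141455188-141460743, plus strand), which encodes adipose triglyceride lipase, the enzyme of the first step of triglyceride breakdown, did not pass the test. It was listed at 3.72, 3.06 and 3.11 FPKM in *Bnc1*tr/tr and at 3.39, 2.54 and 2.29 FPKM in WT. The groups overlapped, and the log2 fold change of 0.21 had a 95% interval from -0.19 to 0.61 (limma adjusted p = 0.41). After quantile normalization it was -0.21. The ratio of *Pnpla2* to *Plin2* also overlapped, with 1.0, 0.477 and 1.39 in *Bnc1*tr/tr and 0.667, 0.261 and 0.444 in WT (exact permutation p = 0.20).

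**Figure D3:**
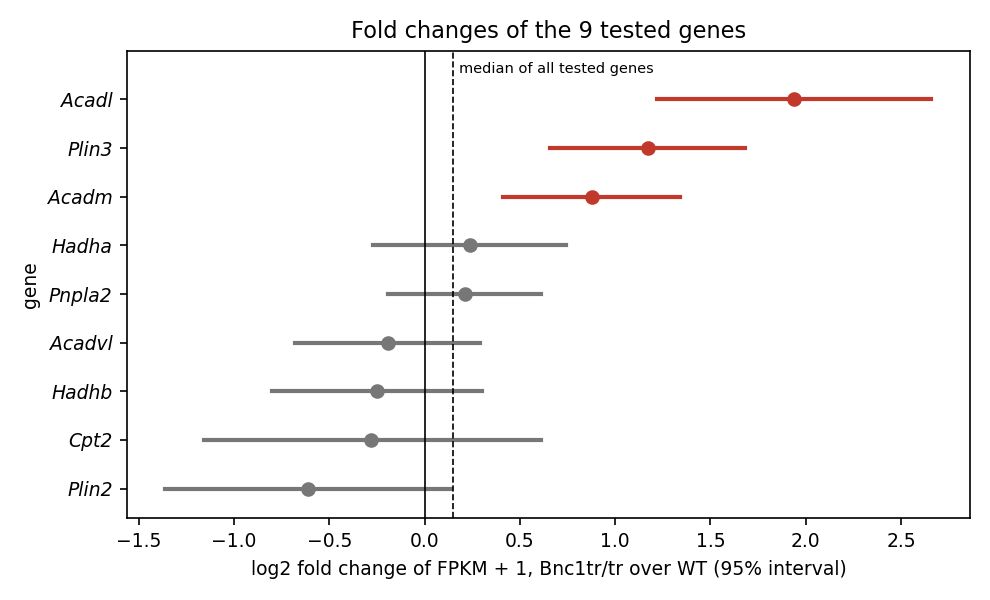
Points are log2 fold changes of FPKM + 1, Bnc1tr/tr over WT, for the 9 tested genes, with 95% intervals from limma as lines, red where a gene was called. The dashed line is the median of all tested genes, 0.15, and only the intervals of Acadl, Plin3 and Acadm lie wholly to its right.

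In mean FPKM the WT order was *Acadm* (36.6), *Cpt2* (25.7), *Hadhb* (25.5), *Hadha* (9.22), *Plin3* (8.2), *Plin2* (6.66), *Acadl* (2.86), *Pnpla2* (2.74), *Acadvl* (1.94) and *Cpt1a* (0.123). Between neighbours, the ranges of the libraries were apart only from *Hadhb* to *Hadha* and from *Acadvl* to *Cpt1a*, and all other neighbours overlapped. In *Bnc1*tr/tr the order was *Acadm* (67.8), *Hadhb* (21.4), *Plin3* (19.5), *Cpt2* (19.4), *Acadl* (12.7), *Hadha* (11.0), *Plin2* (4.12), *Pnpla2* (3.3), *Acadvl* (1.52) and *Cpt1a* (0.233). There *Acadm* stood apart from the next gene, while *Hadhb*, *Plin3* and *Cpt2* overlapped in turn, as did *Acadl* with *Hadha* and *Plin2* with *Pnpla2*. The 10 genes summed to 169.4, 149.6 and 163.6 FPKM in *Bnc1*tr/tr and to 136.2, 124.1 and 98.2 FPKM in WT, with *Acadm* the largest term in 5 of the 6 libraries.

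The other genes of the pathway were taken from 7 lists of 71 genes, of which 64 were in the files and 38 were tested. Of these 10 were called higher in *Bnc1*tr/tr and 3 lower, with a median log2 fold change of 0.13, against 24.1% higher, 7.68% lower and a median of 0.15 over all tested genes. The share of calls in these lists was thus near that of all genes. The 3 largest rises were those of *Gpat3*, *Hilpda* and *Gpat4*. *Gpat3* and *Gpat4*, which encode glycerol-3-phosphate acyltransferases of the endoplasmic reticulum, were at 10.8 ± 2.85 and 31.6 ± 8.72 FPKM in *Bnc1*tr/tr and at 0.557 ± 0.095 and 7.20 ± 1.31 FPKM in WT. Their log2 fold changes were 2.89 (limma adjusted p = 1.6e-05) and 1.97 (adjusted p = 0.00026), and *Gpat3* shared 27.3% of its 31-base words with the antisense gene *4930458D05Rik*. *Hilpda*, whose product sits on droplets and inhibits adipose triglyceride lipase, was at 141.6 ± 34.0 FPKM in *Bnc1*tr/tr and 20.6 ± 4.06 FPKM in WT (log2 fold change 2.71, limma adjusted p = 4.6e-05). *Abhd5*, which encodes the activator of the same lipase, was lower, at 11.7 ± 0.942 against 17.7 ± 0.842 FPKM (log2 fold change -0.56, limma adjusted p = 0.025). Each was the only tested gene of its list. A further 3 genes of the droplet coat list and 4 of the lipolysis list were in the files but too low to be tested. The call of *Abhd5* was lost without *Bnc1*tr/tr replicate 2 (adjusted p = 0.078) or 3 (0.070) and without WT replicate 1 (0.067) or 2 (0.093). *Abhd5* shared 15.3% of its 31-base words with the antisense gene *A730085K08Rik*. *Soat1* and *Soat2*, which encode the enzymes that esterify cholesterol for storage, were at 50.9 ± 2.61 and 2.30 ± 1.0 FPKM in *Bnc1*tr/tr and at 22.6 ± 3.35 and 0.343 ± 0.139 FPKM in WT. Their log2 fold changes were 1.14 (limma adjusted p = 0.0012) and 1.26 (adjusted p = 0.0031). Of the 9 tested genes of triglyceride synthesis and droplet formation, 4 were called higher and 0 lower (0 lower at an unadjusted p under 0.05), with 24.1% of all tested genes higher. The other 5 were not called. *Gpat3* and *Soat2* were under 1 FPKM in every WT library and reached the 1 FPKM mean only through *Bnc1*tr/tr. They could therefore pass the filter only by being higher there, and no support is drawn from this count or from their rises.

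In mitochondrial beta-oxidation, outside the genes listed above, 3 of 12 tested genes were called higher and 1 lower, close to the 24.1% and 7.68% of all tested genes, with a median log2 fold change of -0.089. *Hsd17b10*, a short-chain hydroxyacyl-CoA dehydrogenase that is also a subunit of mitochondrial RNase P, was at 126.6 ± 15.8 FPKM in *Bnc1*tr/tr and 37.1 ± 9.44 FPKM in WT (log2 fold change 1.76, limma adjusted p = 0.0003). The thiolase gene *Acaa2* (1.04, adjusted p = 0.0039) and the enoyl-CoA isomerase gene *Eci2* (1.22, adjusted p = 0.020) were also higher. *Eci1*, the other isomerase gene, was lower at 7.70 ± 1.07 against 15.1 ± 0.284 FPKM (log2 fold change -0.90, limma adjusted p = 0.0032). The call of *Eci2* was lost without *Bnc1*tr/tr replicate 1 (adjusted p = 0.075) or 2 (0.053), after quantile normalization (0.058) and without the filter on low values (0.067). *Eci2* shared 17.3% of its 31-base words with other genes. In peroxisomes, 2 of 6 tested genes were called higher and 0 lower (0 lower at an unadjusted p under 0.05). Among them was *Abcd3*, a transporter of the peroxisomal membrane, with a log2 fold change of 0.96 (limma adjusted p = 0.0024). Of 6 tested genes that control oxidation, *Prkaa1*, a catalytic subunit of AMP-activated kinase, was the one called, at a log2 fold change of -0.74 (limma adjusted p = 0.015). It lost the call without *Bnc1*tr/tr replicate 1 (adjusted p = 0.052) or WT replicate 2 (0.058).

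**Figure D4:**
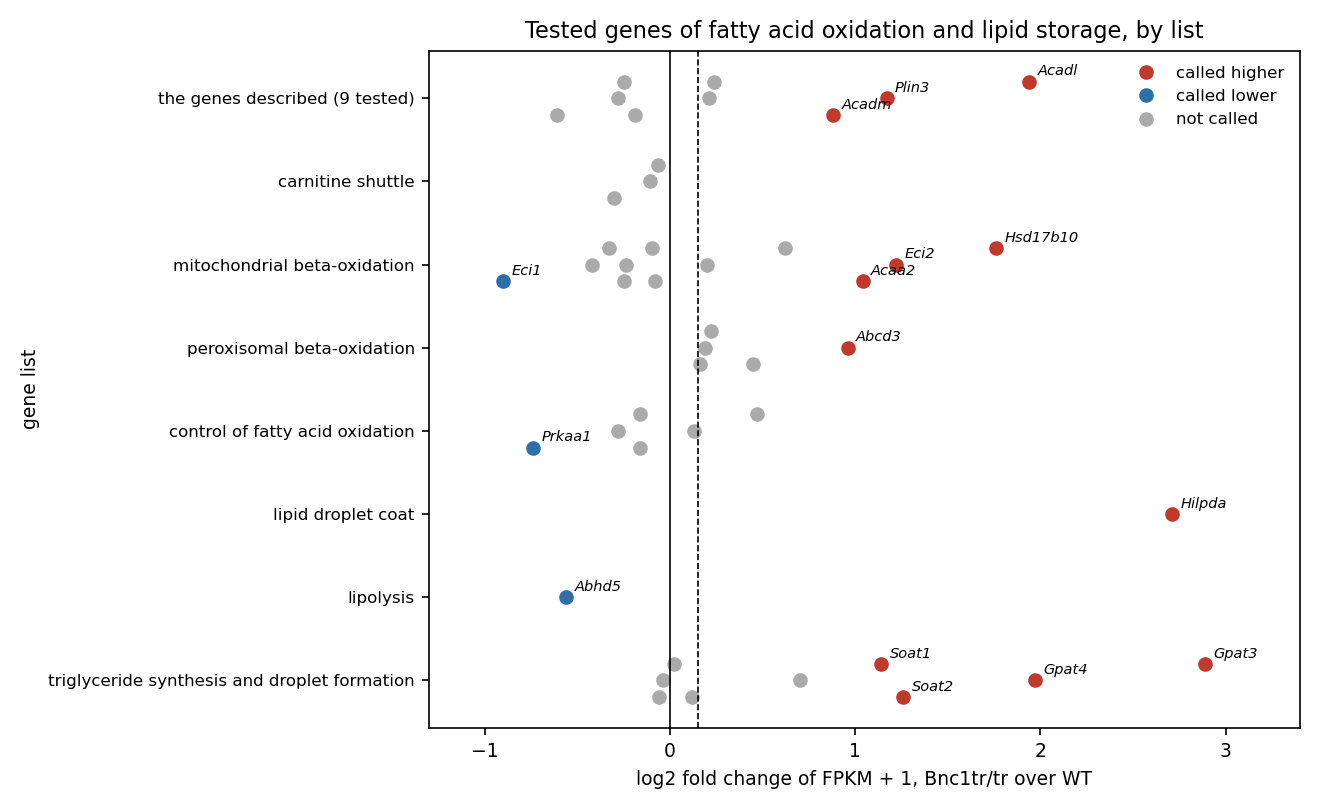
Each point is the log2 fold change of FPKM + 1, Bnc1tr/tr over WT, of a tested and reported gene, by list, in red where called higher, blue where called lower and grey where not called. The dashed line marks the median of all tested genes, 0.15, and red points reach furthest right for Gpat3 (2.89) and Hilpda (2.71). Gpat3 could pass the filter only by being higher in Bnc1tr/tr.

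Markers of other ovarian cells were read beside these results. The 12 granulosa and cumulus markers in the files summed to between 50.0 and 66.6 FPKM in *Bnc1*tr/tr and between 23.5 and 42.1 FPKM in WT, and 6 of the 12 had a higher mean in *Bnc1*tr/tr. The highest, the aromatase gene *Cyp19a1*, was at 35.1 ± 8.58 against 23.3 ± 5.79 FPKM (limma adjusted p = 0.10). Of 6 tested, 3 were called higher and 0 lower (0 at an unadjusted p under 0.05), with 24.1% of all tested genes higher. The 3 were the FSH receptor gene *Fshr* at 5.25 ± 0.654 against 0.35 ± 0.372 FPKM, *Cyp11a1* at 5.63 ± 0.405 against 1.26 ± 0.816 FPKM and *Kitl* at 2.46 ± 0.59 against 1.14 ± 0.0321 FPKM. *Fshr* was under 1 FPKM in every WT library and reached the 1 FPKM mean only through *Bnc1*tr/tr, so no support is drawn from this count. *Inha*, *Gja1* and *Hsd17b1*, of the same list, had a lower mean in *Bnc1*tr/tr, and their groups overlapped. In *Bnc1*tr/tr they were at 0.693 ± 0.968, 0.503 ± 0.264 and 0.197 ± 0.19 FPKM. In WT they were at 3.42 ± 3.37, 1.32 ± 1.36 and 0.787 ± 0.726 FPKM. *Inha* was tested and not called (limma adjusted p = 0.24). *Foxl2*, *Has2* and *Amhr2*, also of this list, were under 0.25 FPKM in all 6 libraries. The 8 theca and stroma markers summed to between 6.53 and 10.3 FPKM in *Bnc1*tr/tr and between 1.87 and 2.3 FPKM in WT, 7 with a higher mean in *Bnc1*tr/tr, with *Dcn* the highest (6.11 ± 1.05 against 1.62 ± 0.352 FPKM, called higher) and *Lhcgr*, *Col1a1* and *Acta2* under 0.25 FPKM throughout. The part of these transcripts in the levels of *Acadl*, *Acadm* and *Plin3* was not tested. The 8 immune markers summed to between 60.5 and 125.6 FPKM in *Bnc1*tr/tr and between 66.2 and 97.3 FPKM in WT, and 7 of the 8 had a higher mean in *Bnc1*tr/tr. The exception was *C1qb*, the highest, at 60.8 ± 8.98 against 80.9 ± 15.3 FPKM. *Lyz2*, *Cd52*, *C1qa*, *Ptprc* and *Adgre1* were listed at 0 in all 3 WT libraries, and *Lyz2* was listed at 5.81, 47.97 and 0 FPKM in *Bnc1*tr/tr. The 4 endothelial markers summed to between 5.38 and 8.1 FPKM in *Bnc1*tr/tr and between 10.1 and 11.7 FPKM in WT, 2 with a higher mean in *Bnc1*tr/tr, with *Pecam1* the highest (4.01 ± 1.01 against 9.11 ± 1.35 FPKM, called lower) and *Cdh5* under 0.25 FPKM. Since FPKM has no absolute scale, less RNA of other transcripts in an oocyte cannot be told apart from more RNA of the genes described.

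How libraries were scaled moved the direction of calls. As deposited, 75.8% of called genes were higher in *Bnc1*tr/tr (2547 higher and 811 lower), against 60.5% with upper-quartile scaling, 56.0% with median-ratio scaling and 48.0% when quantiles were made equal. In the same order, the median over the tested genes was 0.15, -0.0029, -0.047 and -0.091 (log2). *Acadl* and *Plin3* were called higher under each of these, and *Acadm* under all except median-ratio scaling. After quantile normalization 3 of the 9 tested genes were called higher and 2, *Acadvl* and *Plin2*, lower.

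**Figure D5:**
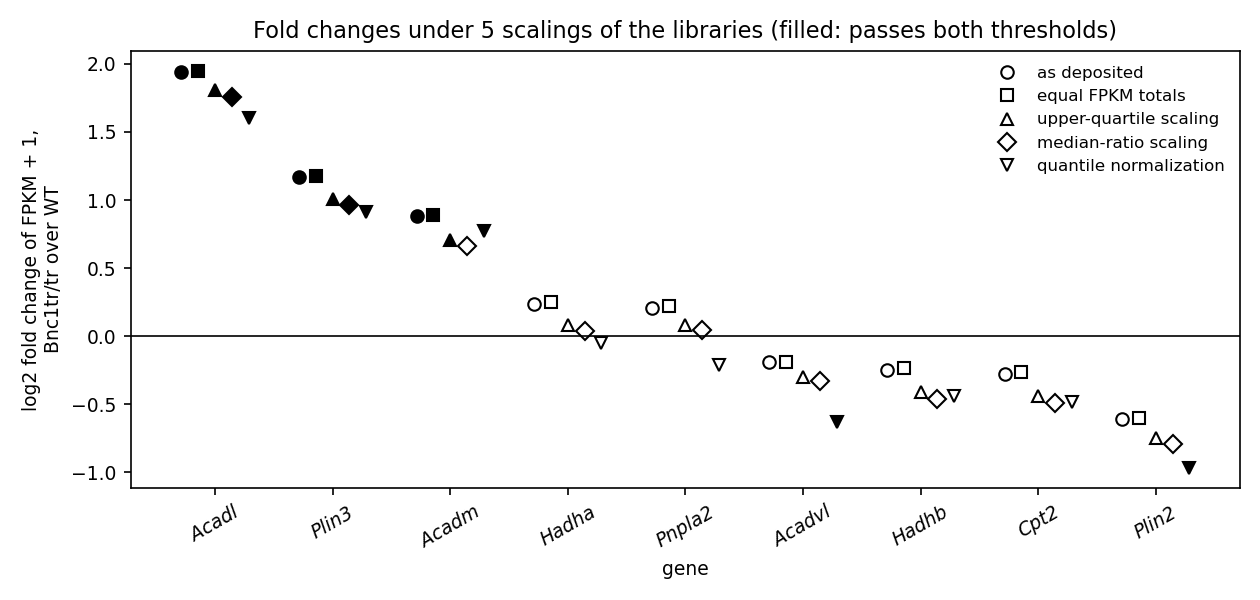
Symbols are log2 fold changes of FPKM + 1, Bnc1tr/tr over WT, of the 9 tested genes under 5 scalings of the libraries, filled where both thresholds were passed. Acadl and Plin3 are filled under all 5, Acadm under 4, and Acadvl and Plin2 only after quantile normalization, where Hadha (-0.053) and Pnpla2 (-0.21) fall below 0.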

How the data were processed

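The 6 GV oocyte libraries were grouped by the genotype in their labels. The authors deposited 1 gene table per library in FPKM. Their processing notes name HISAT2 2.0.4, Bowtie2 2.2.5, RSEM 1.2.12 and GRCm38.p6, without roles. cDNA was primed with oligo-dT, amplified without molecular identifiers and made into unstranded transposase libraries, so floors cover counting error only.

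The genotypes were fitted by limma 3.58.1 (R 4.3.3) to log2(FPKM + 1), a scale that understates the change of low genes, with genotype as the only term. Genes whose mean reached 1 FPKM were tested, and p-values were adjusted by Benjamini-Hochberg over all of them. Ratios were compared by exact permutation. Depth was read from the step between low FPKM values in genes with transcripts of 450 to 1600 bases and was used in no test, and the estimate of WT replicate 3 is the least certain. Shares of 31-base words were counted over GENCODE transcripts, and gene positions and promoters came from RefSeq.

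The genes and lists were chosen with earlier results of these data known. Named were the 10 genes, every called pathway gene except 1 that is not reported here (it is in the counts and in no figure), the 2 most abundant genes of a list without a call, and the highest marker of each list of other cells. Markers that were near 0, called or lower in *Bnc1*tr/tr, and genes that share sequence, were named after their values were seen. Alternatives covered the pseudocount, the filter, 4 scalings, the variance model, the fold threshold, a replicate block and leaving out each library. *Cpt1b*, *Ehhadh*, *Plin4*, *Cideb*, *Cidec*, *G0s2* and *Fitm1* and 6 markers were not analysed here.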

Additional observations from a re-analysis of the deposited data

How the results depend on the processing

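Of 127 values of the 9 tested genes and *Cpt1a* under the alternatives, 120 kept their direction and their side of the threshold, and all 48 alternatives of the ratios kept their direction. Under upper-quartile, median-ratio and quantile scaling 1349, 1535 and 1811 genes were called lower, with 1670 higher after quantile normalization. Of the 10 genes 2 were called lower after quantile normalization and 1 with the replicate block, and of the pathway genes 5 were called lower with median-ratio scaling and 8 after quantile normalization. *Hadha* (-0.053) and *Pnpla2* (-0.21) changed sign after quantile normalization. Leaving out single libraries gave 416 to 1037 genes called lower, 1 to 4 pathway genes called lower and log2 fold changes of *Cpt2* from -0.74 to 0.089. Without WT replicate 2 these were 416 genes and 1 pathway gene, and without WT replicate 1 that of *Cpt2* was 0.089. The causes of these shifts were not tested.

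Although the study stated that its comparisons were between littermates, which libraries share a litter was not given. Same-numbered libraries deviated together with correlations of 0.278, -0.0344 and 0.124, against a mean of -0.0627 for differently numbered ones. Of the 6 libraries 3 correlated best with their own number, which cannot decide whether the numbers pair the libraries. Genotype was kept as the only term of the main fit. With the replicate block 2781 genes were called higher and 952 lower. Of the 10 genes it added *Plin2* (-0.61), and the difference of the *Hadha* to *Hadhb* ratio was 0.52 with the replicate block. *Cpt1a* is limited by its low level, and the ratio tests are limited by the number of libraries.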
